A study of Rattus norvegicus with 9 samples.

Results

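The 37 genes described here encode the enzymes of glycolysis and a set of other genes of the cellular response to low oxygen. They were listed by name: 17 glycolytic enzymes (the lactate dehydrogenases included) and 20 others, which are transporters of glucose and lactate, regulators of glycolytic flux, oxygen sensing genes and other targets of hypoxia signalling. Of the 37, all but Gapdh and Pkm are among the 14217 genes for which the array's probe table names a probe set of their own. P-RPC were obtained with papain from the neural retina of newborn SD rats (postnatal day 1), and neither culture nor sorting of the cells on these arrays is described. rESC-RPC1 and rESC-RPC2 were differentiated from 1 embryonic stem cell line, DA8-16, of DA rats, with a Wnt inhibitor (IWR-1e) and Matrigel at first and with fetal bovine serum from day 8, and both were harvested on day 16. The rESC-RPC1 aggregates were dissociated and plated on day 10, and their medium was replaced by DMEM/F12 with N2 and serum on day 14. The rESC-RPC2 aggregates stayed in suspension until day 14, when they too were dissociated and plated. These cells were kept in GMEM with serum replacement and serum until harvest. Each group had 3 biological replicates, hybridized to 1 array each, and no oxygen tension is given in the sources used here. Strain and culture differ together in every comparison with P-RPC, so they cannot be told apart. Between both kinds of rESC-RPCs, medium, time in adherent culture and time since dissociation differ together and cannot be told apart either.

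Glycolysis breaks glucose down to pyruvate in the cytosol, and lactate dehydrogenase turns pyruvate into lactate, which leaves the cell through monocarboxylate transporters. When oxygen is scarce, the transcription factor subunit encoded by Hif1a escapes hydroxylation by the prolyl hydroxylases (Egln genes), pairs with ARNT and raises the transcription of glucose transporters, glycolytic enzymes and genes such as Vegfa, Bnip3 and Adm. The retina is known for a high rate of lactate production even where oxygen is present, and proliferating progenitors as well as photoreceptors rely on glycolysis.

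Each value is the deposited MAS 5.0 signal of a probe set, which has no unit and may be compared between arrays for 1 probe set but not between probe sets. The signal threshold of detection was 123 (log2 6.94), the 50th percentile of all values, and a gene was tested where at least 3 of the 9 arrays reached it. Differences are on the log2 scale, with the standard error of limma's moderated fit over all 9 arrays. Calls needed an adjusted p (Benjamini-Hochberg, over 9956 genes tested) under 0.05 together with a difference of at least 1 on the log2 scale, which is 2-fold. Of the 37 genes, 33 were tested (14 enzymes and 19 others), and 29 of these were at or above the threshold on all 9 arrays. The exceptions were Pfkl, which reached it on 7 arrays, and Slc16a3, Ndrg1 and Adm, which reached it on 6 each. For these 4 genes passing the filter was itself tied to the groups where their signal was high. Hk2 (24.4 to 61.3 over the 9 arrays) and Car9 (at or above the threshold on 2 arrays) were not tested. Gapdh was measured by control probe sets alone, whose signal near the 3′ end was between 8675 and 11214 on all 9 arrays, and the probe set of Pkm is shared with a pseudogene, so neither was tested.

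The arrays hold mixed cells, and fewer cells of a type cannot be told apart from less RNA per cell. Of 10 retinal progenitor markers on the array, 9 were at or above the threshold on all 3 P-RPC arrays, 8 on those of rESC-RPC1 and 7 on those of rESC-RPC2. The exceptions included Six3, which was under it in every group, and Pax6, which was under it on all 3 rESC-RPC2 arrays. The summed signal of this list was 56949 to 58312 in P-RPC, 20267 to 29727 in rESC-RPC1 and 14517 to 15811 in rESC-RPC2. Of 8 photoreceptor markers, 6 reached it on all 3 P-RPC arrays and 0 on those of either kind of rESC-RPCs, with sums of 21806 to 24220 in P-RPC and at most 444 elsewhere. All 10 proliferation markers reached it in every group, with sums of 49142 to 52896, 26533 to 29809 and 22951 to 27344. The part of these cells in the differences was not tested. The ratio of the 3′ to the 5′ control probe set of Gapdh, a check of RNA integrity, lay between 1.12 and 1.20 on all 9 arrays.

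Between both kinds of rESC-RPCs the calls ran in 1 direction. Of the 33 genes tested, 12 (36.4%) were lower in rESC-RPC2 than in rESC-RPC1, where 9.25% of all genes were called lower, and 0 were called higher, where 5.02% of all genes were. The methods' t-test with Benjamini-Hochberg adjustment gave 11 lower genes, without Mxi1, and 0 higher. Of all 9956 genes it called 702 lower and 433 higher. At an unadjusted p under 0.05 and 2-fold, limma and the methods' t-test also gave 0 higher genes, and without the fold limma gave 5 and the methods' t-test 3. Among the 29 genes measurable on every array, 9 were lower and 0 higher, but no share of all genes so measurable was computed. The lower genes were Tpi1, Aldoc, Ldha and Pfkl among the enzymes, and P4ha1, P4ha2, Egln3, Ddit4, Slc16a3, Ndrg1, Bnip3 and Mxi1 among the others. The median difference was -0.55 for the 14 enzymes and -0.86 for the 19 others, beside -0.03 for all genes.

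Against P-RPC the calls ran both ways. In rESC-RPC1, 8 genes (24.2%) were higher, where 12.0% of all genes were, and 5 (15.2%) were lower, where 9.56% were. The higher ones were Egln3, Pfkm, Pfkfb3, P4ha1, P4ha2, Adm, Ddit4 and Aldoc, and the lower ones were Slc2a1, Ndrg1, Hif1a, Pfkp and Slc16a3. In rESC-RPC2, 6 genes (18.2%) were higher than in P-RPC, where 10.7% of all genes were, and 8 (24.2%) were lower, where 13.0% were. The higher ones were Pfkm, Ldhb, Egln3, Slc2a3, Pfkfb3 and Adm, and the lower ones were Ndrg1, Slc2a1, Slc16a3, Bnip3, Ldha, Mxi1, Ddit4 and Aldoc. Among the 29 genes measurable on every array, 7 were higher and 3 lower in rESC-RPC1, and 5 were higher and 6 lower in rESC-RPC2. Here too no share of all genes so measurable was computed. The enzyme median was 0.47 in rESC-RPC1 and -0.40 in rESC-RPC2, that of the other genes 0.23 and -0.45, and that of all genes -0.01 and -0.02. Both comparisons share the 3 P-RPC arrays.

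Counted by arrays alone, all 3 arrays of rESC-RPC2 lay below all 3 of rESC-RPC1 for 23 of the 33 genes, where 29.6% of all genes did, and above them for 4, where 24.2% did. For rESC-RPC1 against the P-RPC arrays, 19 genes lay above (32.7% of all genes) and 8 below (33.7%). For rESC-RPC2 against the same arrays, 11 lay above (35.2%) and 20 below (37.7%).

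In all, 20 of the 33 genes (60.6%) were called in at least 1 comparison, where 34.5% of all genes were. Aldoc, Slc16a3, Egln3, Ddit4 and Ndrg1 were called in all 3 comparisons, for which no share of all genes was computed. The highest group mean was that of rESC-RPC1 for 20 of the 33 genes, beside 30.9% of all genes, and the lowest was that of rESC-RPC2 for 18, beside 34.2% of all genes. The spread between replicates was wider in rESC-RPC1, where the median SD of log2 signal over the 33 genes was 0.25, than in P-RPC (0.08) and rESC-RPC2 (0.13). Over all genes these SDs were 0.18, 0.10 and 0.14 in the same order. The array of rESC-RPC1 replicate 3 held the lowest of the 3 values for 18 of the 33 genes and the highest for 10.

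**Figure D1:**
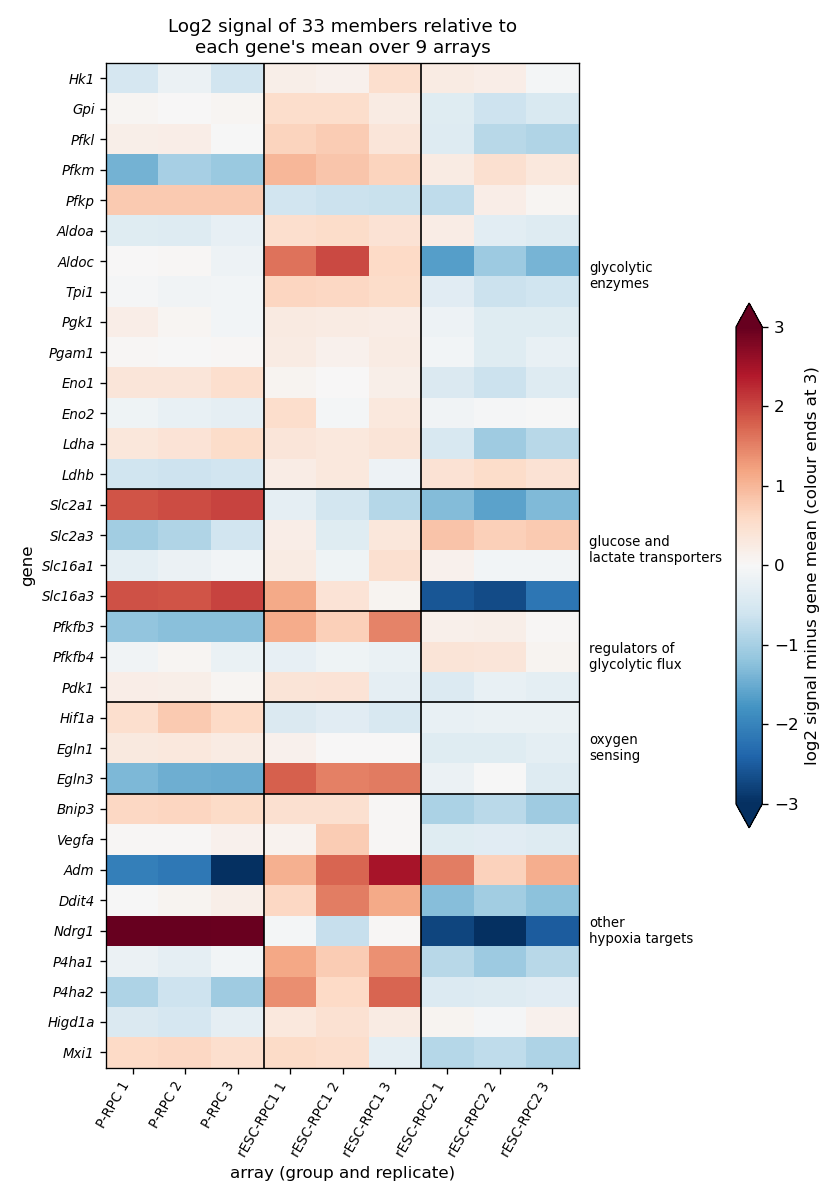
Log2 signal of the 33 genes tested (rows, by role) on the 9 arrays (columns), each relative to the gene's own mean over 9 arrays, in red where higher and in blue where lower. The rESC-RPC1 columns hold the highest group mean for 20 genes and the rESC-RPC2 columns the lowest for 18, while Slc2a1 and Ndrg1 are highest on the 3 P-RPC arrays.

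**Figure D2:**
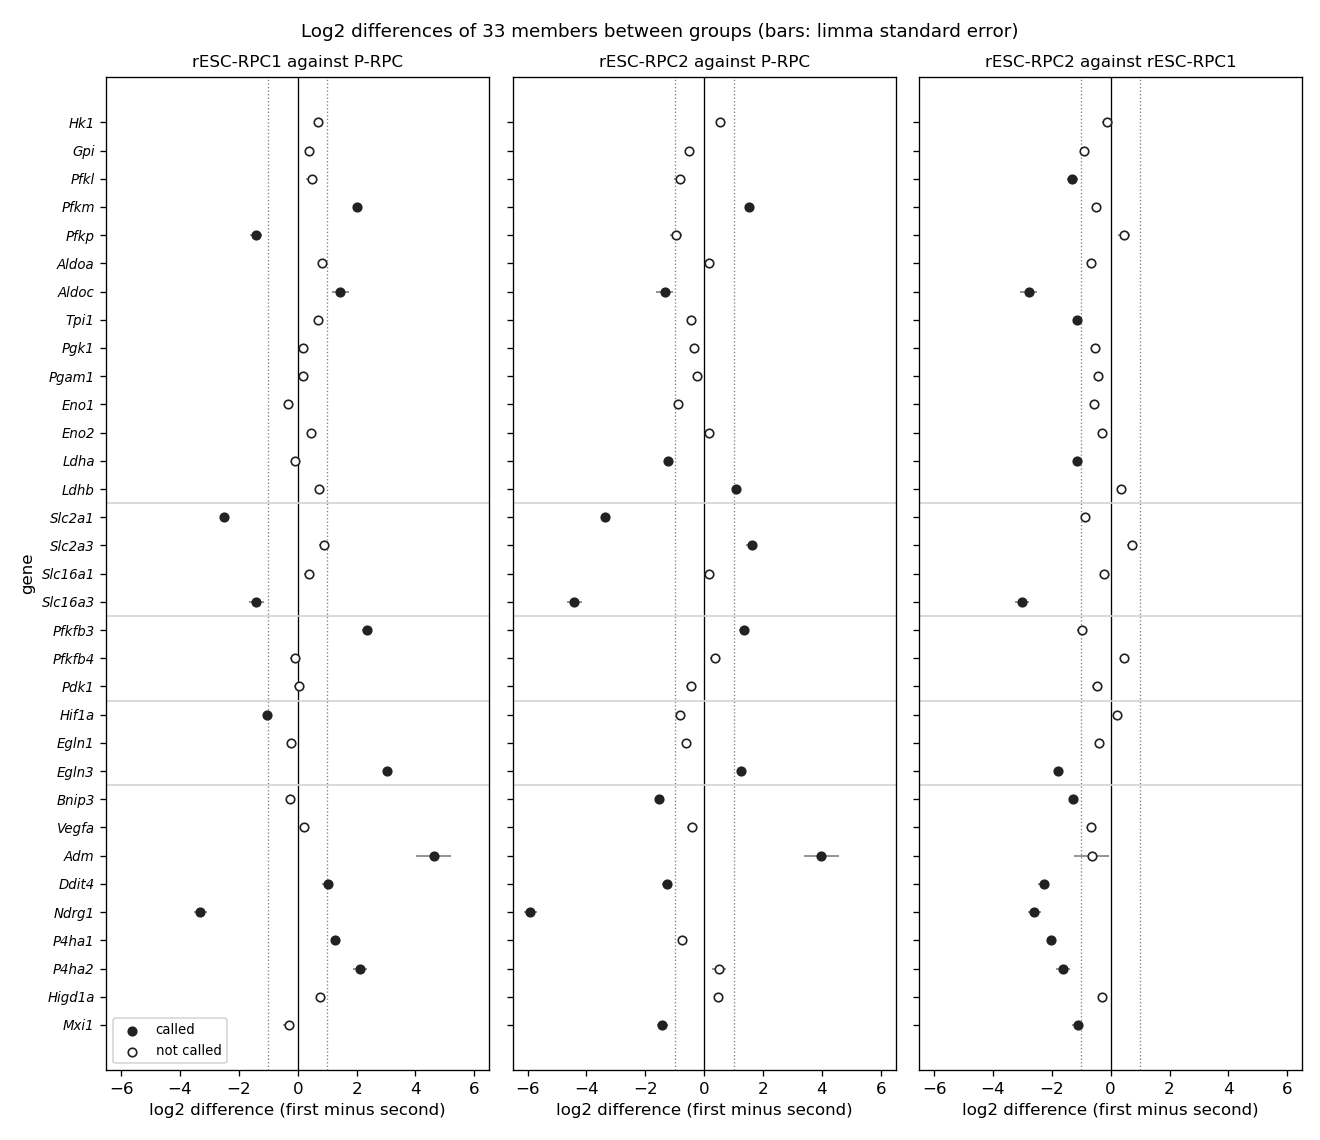
Log2 difference of each of the 33 genes in the 3 comparisons, with limma's standard error as bars, filled points for called genes and dotted lines at 1 and -1. In the panel of rESC-RPC2 against rESC-RPC1 all 12 filled points lie left of 0, and in both other panels they lie on both sides. The points of Adm, Slc16a3 and Ndrg1 are fitted values that include signals under the detection threshold.

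Promoter windows are shown for 4 genes called lower in rESC-RPC2 than in rESC-RPC1, since hypoxia signalling acts through short DNA motifs near the start of its target genes. Aldoc, Ddit4 and P4ha1 had the widest differences there among the genes measurable on every array. Slc16a3 is shown for its fitted difference, which rests on rESC-RPC2 signals under the threshold and so gives only a bound. Each window runs from 250 bases before to 50 bases after a start site in RefSeq (build GRCr8), written in the direction of the gene. Capitals mark each match to ACGTG or GCGTG, the core of the element that HIF complexes bind, on either strand, so that a match on the opposite strand reads CACGT or CACGC. Slc16a3 lies on the forward strand at chr10:106712078-106712377, Aldoc on the forward strand at chr10:63715294-63715593, Ddit4 on the reverse strand at chr20:28436988-28437287 and P4ha1 on the forward strand at chr20:27844796-27845095.
Slc16a3: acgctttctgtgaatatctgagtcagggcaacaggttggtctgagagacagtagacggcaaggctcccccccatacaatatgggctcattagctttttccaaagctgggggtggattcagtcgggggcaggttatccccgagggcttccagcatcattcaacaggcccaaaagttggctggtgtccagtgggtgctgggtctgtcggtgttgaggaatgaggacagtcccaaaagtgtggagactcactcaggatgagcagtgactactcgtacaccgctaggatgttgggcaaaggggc
Aldoc: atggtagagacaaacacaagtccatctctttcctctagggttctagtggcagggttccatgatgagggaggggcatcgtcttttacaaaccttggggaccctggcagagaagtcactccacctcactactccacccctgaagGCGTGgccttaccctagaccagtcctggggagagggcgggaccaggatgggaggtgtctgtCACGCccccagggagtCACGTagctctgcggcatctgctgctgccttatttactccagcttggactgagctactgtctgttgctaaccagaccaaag
Ddit4: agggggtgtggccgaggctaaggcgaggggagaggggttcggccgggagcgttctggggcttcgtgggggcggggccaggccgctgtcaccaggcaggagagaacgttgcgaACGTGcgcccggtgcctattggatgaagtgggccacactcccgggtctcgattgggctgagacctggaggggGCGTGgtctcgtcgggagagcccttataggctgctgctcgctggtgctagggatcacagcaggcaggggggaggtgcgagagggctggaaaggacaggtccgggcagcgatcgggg
P4ha1: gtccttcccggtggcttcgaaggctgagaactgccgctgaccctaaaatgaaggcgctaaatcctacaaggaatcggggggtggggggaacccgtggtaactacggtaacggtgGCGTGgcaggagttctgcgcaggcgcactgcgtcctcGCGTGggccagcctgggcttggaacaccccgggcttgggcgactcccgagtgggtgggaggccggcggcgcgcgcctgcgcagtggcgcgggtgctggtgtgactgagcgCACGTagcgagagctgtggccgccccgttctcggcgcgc
The Aldoc window held 3 matches, the closest 31 bases before the start site, the Ddit4 window 2, the P4ha1 window 3 and the Slc16a3 window 0. Of the 34 genes with a window in the table, which do not include Pgk1, Slc2a3 and Ndrg1, 26 held at least 1 match in a window. Counted by window, since some genes have several start sites, 27 of 39 windows (69.2%) held a match, as did 41.6% of all 33469 windows in the table. ACGTG was in 59.0% of these 39 windows and 19.3% of all windows, GCGTG in 46.2% and 29.7%, and CACGTG, which contains ACGTG and is also the site of other factors, in 12.8% and 6.42%. A match is a description of the letters and not a bound site, and the 8 genes with none in these windows were Slc16a3, Egln3, Tpi1, Adm, Vegfa, Pfkfb4, Hk2 and Pkm.

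The phosphofructokinase isoforms Pfkm and Pfkp differed from P-RPC in opposite directions, and so did the lactate dehydrogenase genes Ldha and Ldhb in rESC-RPC2. Phosphofructokinase, which commits sugar to glycolysis, has a muscle form (Pfkm), a platelet form (Pfkp) and a liver form (Pfkl). The Pfkm signal was 311, 416 and 386 in P-RPC, 1647, 1489 and 1332 in rESC-RPC1, and 987, 1155 and 1031 in rESC-RPC2. All 6 rESC-RPC arrays lay above the 3 P-RPC arrays, and Pfkm rose by 2.01 ± 0.13 in rESC-RPC1 (adjusted p = 6.47e-07) and by 1.52 ± 0.13 in rESC-RPC2 (adjusted p = 4.11e-06). A second probe set of Pfkm was also called higher in both, but its P-RPC signal (18.7, 25.3 and 36.7) was under the threshold. It reached the threshold on the 6 rESC-RPC arrays and so passed the filter through these alone. The remaining probe set of Pfkm was under the threshold on every array and was not tested. The Pfkp signal was 2995, 2998 and 2981 in P-RPC, 1167, 1115 and 1094 in rESC-RPC1, and 1017, 1995 and 1798 in rESC-RPC2. Pfkp fell by 1.41 ± 0.20 in rESC-RPC1 (adjusted p = 0.000158). In rESC-RPC2, where replicate 1 stood apart, its difference was -0.96 ± 0.20 (adjusted p = 0.00179), just short of 2-fold, and without replicate 2 or replicate 3 it passed, at -1.15 and -1.07. The Pfkl signal was 223, 228 and 196 in P-RPC, 318, 336 and 254 in rESC-RPC1, and 152, 111 and 106 in rESC-RPC2, where 2 arrays were under the threshold. In rESC-RPC2 Pfkl fell by 1.31 ± 0.18 against rESC-RPC1 (adjusted p = 0.00024) and was called in neither comparison with P-RPC.

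Lactate dehydrogenase has an A subunit (Ldha), a HIF target that prevails where lactate is made, and a B subunit (Ldhb), which prevails in oxidative tissues such as heart. The Ldha signal was 11243, 11862 and 13119 in P-RPC, 11462, 11045 and 11662 in rESC-RPC1, and 6336, 4242 and 4966 in rESC-RPC2. P-RPC and rESC-RPC1 overlapped, and the 3 rESC-RPC2 arrays lay below both. Ldha fell by 1.24 ± 0.12 against P-RPC (adjusted p = 1.11e-05) and by 1.16 ± 0.12 against rESC-RPC1 (adjusted p = 4.03e-05). The Ldhb signal was 3306, 3281 and 3349 in P-RPC, 5881, 6234 and 4486 in rESC-RPC1, and 6812, 7322 and 6819 in rESC-RPC2. The 3 groups did not overlap, and the rise of Ldhb over P-RPC was called in rESC-RPC2 (1.08 ± 0.11, adjusted p = 1.19e-05) and not in rESC-RPC1 (0.73 ± 0.11, adjusted p = 0.000208). The difference between both kinds of rESC-RPCs was 0.35 ± 0.11.

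Aldolase C (Aldoc), the brain form of the enzyme that splits fructose bisphosphate and a marker of astrocytes, had the widest enzyme difference between both kinds of rESC-RPCs. The Aldoc signal was 1474, 1513 and 1335 in P-RPC, 4591, 5856 and 2241 in rESC-RPC1, and 471, 689 and 564 in rESC-RPC2. The groups did not overlap, and the rESC-RPC1 arrays differed most among themselves, with an SD of 0.72 on the log2 scale. Aldoc was 1.45 ± 0.29 above P-RPC in rESC-RPC1 (adjusted p = 0.00143) and fell by 1.34 ± 0.29 in rESC-RPC2 (adjusted p = 0.0021), which put rESC-RPC2 below rESC-RPC1 by a log2 difference of -2.79 ± 0.29 (adjusted p = 3.51e-05). By the methods' t-test with Benjamini-Hochberg adjustment the rise in rESC-RPC1 was not called (adjusted p = 0.0523). Of 11 astrocyte and radial glia markers on the array, 6 were at or above the threshold on all 3 P-RPC arrays, 9 in rESC-RPC1 and 7 in rESC-RPC2, with a summed signal of 27425 to 32929, 50260 to 74670 and 42129 to 44332. Of the 9 tested, 5 were called lower in rESC-RPC2 than in rESC-RPC1 (9.25% of all genes) and 0 higher (5.02%). Gfap, the defining one, fell by 2.01 ± 0.26 there (adjusted p = 0.00015). Set against P-RPC, 6 were higher (12.0%) and 1 lower (9.56%) in rESC-RPC1. In rESC-RPC2, 4 were higher than in P-RPC (Gfap, Vim, Nfia and Fabp7, 10.7%) and 2 lower (Hopx and Gja1, 13.0%). Gfap, Aqp4 and S100b were under the threshold on all 3 P-RPC arrays, and Slc1a2 and Aldh1l1 in every group. All 12 neuron markers were at or above it in rESC-RPC2, with sums of 54730 to 60711, beside 21884 to 31400 in rESC-RPC1 and 26956 to 32339 in P-RPC, where Syt1 alone was under it in both. The part of these cell types in the differences was not tested.

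Triosephosphate isomerase (Tpi1), which interconverts the products of aldolase, was the remaining enzyme called. The Tpi1 signal was 9178, 8700.0 and 8795 in P-RPC, 14619, 14455 and 13798 in rESC-RPC1, and 7366, 5984 and 6215 in rESC-RPC2. No arrays overlapped between groups, and Tpi1 fell by 1.14 ± 0.08 in rESC-RPC2 against rESC-RPC1 (adjusted p = 3.22e-06), while its differences of 0.68 and -0.45 against P-RPC were under 2-fold. The other 7 enzymes tested were called in no comparison. They were Hk1 and Gpi, which make and isomerise glucose 6-phosphate, Aldoa, and Pgk1, Pgam1, Eno1 and Eno2, which carry the later steps towards pyruvate. Their differences between rESC-RPC2 and rESC-RPC1 ran from -0.91 ± 0.09 (Gpi, adjusted p = 3.75e-05) to -0.14 ± 0.15 (Hk1, adjusted p = 0.461), all below 0. For Pgk1 the probe set mattered: that of highest signal gave -0.53 ± 0.08 (adjusted p = 0.000274), and a second one, at or above the threshold on all 9 arrays, gave -1.11 (adjusted p = 4.71e-06) and was called. Eno1 differed from P-RPC by -0.89 ± 0.08 in rESC-RPC2 (adjusted p = 5.15e-06), with all 3 arrays (4279.7, 3736 and 4404) under those of P-RPC (7407, 7487 and 8161).

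The transporters that bring glucose into the cell differed from P-RPC in opposite directions. Slc2a1 encodes GLUT1, the glucose transporter of the blood-tissue barriers and of most growing cells, and Slc2a3 encodes GLUT3, the neuronal one. The Slc2a1 signal was 6426, 6755 and 7112 in P-RPC, 1446, 1192 and 957 in rESC-RPC1, and 702, 573 and 688 in rESC-RPC2. Both kinds of rESC-RPCs lay far below P-RPC on every array, and the rESC-RPC2 arrays lay below those of rESC-RPC1. Slc2a1 fell by 2.52 ± 0.14 in rESC-RPC1 (adjusted p = 2.55e-07) and by 3.37 ± 0.14 in rESC-RPC2 (adjusted p = 4.28e-08), while the difference of -0.86 ± 0.14 between them was under 2-fold. The Slc2a3 signal was 232, 256 and 320.2 in P-RPC, 545, 368 and 603 in rESC-RPC1, and 863, 776 and 817 in rESC-RPC2. Slc2a3 thus had the opposite order, with no overlap between groups, and its rise over P-RPC was called in rESC-RPC2 (1.62 ± 0.18, adjusted p = 3.09e-05) and missed 2-fold in rESC-RPC1 (0.89 ± 0.18, adjusted p = 0.00187). Without P-RPC replicate 3 or rESC-RPC1 replicate 2 the latter was called too, at 1.02 and 1.10. Some markers of other cell types were also higher in P-RPC. Kdr, which encodes a VEGF receptor, was the 1 endothelial marker of 9 on the array that could be tested, and it was called lower in both kinds of rESC-RPCs. Pecam1, Tek, Tie1, Esam, Flt1, Eng and Emcn were under the threshold in every group, and the sums of the list were 6884 to 7286 in P-RPC, 665 to 1311 in rESC-RPC1 and 356 to 411 in rESC-RPC2. Of 5 red blood cell markers, Hbb alone was detected, in P-RPC, where the sum was 14120 to 15265 beside at most 191 on any rESC-RPC array. Of 10 microglia and macrophage markers, 5 (Aif1, Csf1r, C1qa, C1qb and C1qc) were at or above the threshold on all 3 P-RPC arrays. In both kinds of rESC-RPCs all 10 were under it. The 5 were called lower in rESC-RPC1 and in rESC-RPC2, where 9.56% and 13.0% of all genes were, but they passed the filter through P-RPC alone. The sum of all 10 was 1489 to 1801 in P-RPC and at most 291 elsewhere, and Cx3cr1, Itgam, Ptprc and Cd68 were under the threshold in every group. The part of these cells in the Slc2a1 difference was not tested.

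Lactate leaves cells through MCT4, encoded by Slc16a3, and enters or leaves through MCT1, encoded by Slc16a1. The Slc16a3 signal was 949, 936 and 1021 in P-RPC, 553, 335 and 265 in rESC-RPC1, and 42.4, 39.1 and 56.6 in rESC-RPC2, all 3 of the last under the detection threshold. Slc16a3 fell by 1.40 ± 0.25 in rESC-RPC1 relative to P-RPC (adjusted p = 0.000665). In rESC-RPC2 it was at least 7.90-fold lower than in P-RPC (adjusted p = 2.38e-07) and at least 2.99-fold lower than in rESC-RPC1 (adjusted p = 9.03e-06), where the bound sets each group mean of log2 signals against the threshold. Slc16a3 is among the genes listed above whose promoter windows held no HIF core motif. The Slc16a1 signal was 973 to 1135 in P-RPC, 1086 to 1669 in rESC-RPC1 and 1119.5 to 1305 in rESC-RPC2, and it was called in no comparison.

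To put pairs of related genes on 1 scale, the log2 signal of one was subtracted from that of the other on each array. The pairs were chosen after their values were seen, so the ratios carry no test, and since probe sets differ in brightness the shift between groups can be read but not the level. Pfkm minus Pfkp was -3.02 ± 0.22 (SD, n = 3) for the P-RPC arrays, 0.40 ± 0.11 for rESC-RPC1 and -0.54 ± 0.43 for rESC-RPC2. Ldhb minus Ldha was -1.86 ± 0.10, -1.06 ± 0.29 and 0.45 ± 0.34 in the same order. Slc2a3 minus Slc2a1 was -4.66 ± 0.17, -1.26 ± 0.53 and 0.33 ± 0.10. All 3 ratios were lowest in P-RPC with no overlap between groups. Those of the dehydrogenases and of the glucose transporters were highest in rESC-RPC2, and that of the phosphofructokinases was highest in rESC-RPC1.

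**Figure D3:**
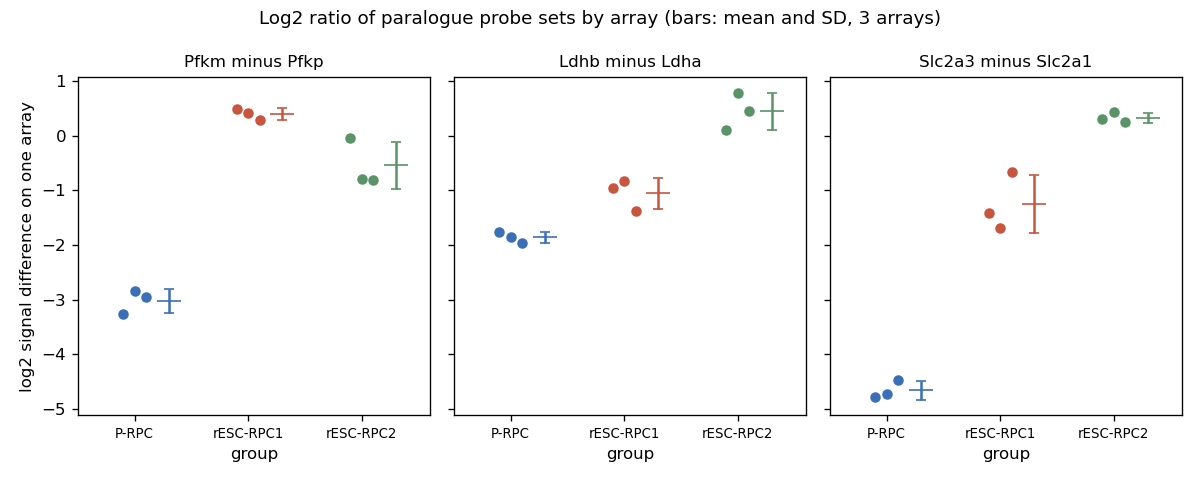
Log2 signal of Pfkm minus Pfkp, Ldhb minus Ldha and Slc2a3 minus Slc2a1 on each array (points), with the mean and SD of 3 arrays per group (bars). The 3 P-RPC arrays lie lowest in each panel, with means of -3.02, -1.86 and -4.66, and only shifts between groups within a panel can be read.

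Among the regulators of glycolytic flux, Pfkfb3 makes fructose 2,6-bisphosphate, the strongest activator of phosphofructokinase. The Pfkfb3 signal was 384, 365 and 364 in P-RPC, 1902, 1433 and 2447 in rESC-RPC1, and 972, 983 and 899 in rESC-RPC2. The groups did not overlap, and Pfkfb3 rose by 2.34 ± 0.16 in rESC-RPC1 (adjusted p = 9.79e-07) and by 1.36 ± 0.16 in rESC-RPC2 (adjusted p = 4e-05). Between both kinds of rESC-RPCs its difference of -0.99 ± 0.16 (adjusted p = 0.000625) just missed 2-fold, and without 1 array (rESC-RPC1 replicate 2, or rESC-RPC2 replicate 1 or 2) it was called, at up to -1.18. Pfkfb4, a relative induced by hypoxia in many tissues, was called in no comparison, with a signal of 146 to 158 in rESC-RPC1 and 183 to 225 in rESC-RPC2. Pdk1, a kinase that shuts off pyruvate dehydrogenase, differed between rESC-RPC2 and rESC-RPC1 by -0.48 ± 0.17 (adjusted p = 0.036) in the probe set of highest signal. A second probe set of Pdk1, detected on all 9 arrays, gave -1.13 (adjusted p = 0.000274) and was called.

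Among the genes of oxygen sensing, Hif1a and Egln3 differed from P-RPC in opposite directions. The Hif1a signal was 8611, 10389.7 and 9208 in P-RPC, 4463, 4781 and 4312 in rESC-RPC1, and 5215, 5281 and 5253 in rESC-RPC2. All P-RPC arrays lay above all others, and Hif1a fell by 1.05 ± 0.08 in rESC-RPC1 (adjusted p = 1.33e-06), while its difference of -0.84 ± 0.08 in rESC-RPC2 (adjusted p = 6.03e-06) was under 2-fold. Without P-RPC replicate 2 the fall in rESC-RPC1 was -0.98 and was no longer called. HIF activity is set largely by the stability of the protein, which arrays do not measure. Egln3, a prolyl hydroxylase that HIF itself induces, gave a signal of 135, 126 and 124 in P-RPC, 1191, 977 and 1016 in rESC-RPC1, and 307, 342 and 264 in rESC-RPC2. P-RPC lay just above the detection threshold, and no arrays overlapped between groups. Egln3 rose by 3.05 ± 0.13 in rESC-RPC1 (adjusted p = 5.68e-08) and by 1.24 ± 0.13 in rESC-RPC2 (adjusted p = 2e-05), and it fell by 1.81 ± 0.13 from rESC-RPC1 to rESC-RPC2 (adjusted p = 5.18e-06). Egln1, the main oxygen sensor of most cells, was called in no comparison, and its widest difference was -0.61 ± 0.08, in rESC-RPC2 relative to P-RPC (adjusted p = 6.07e-05).

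Of the 10 other hypoxia targets, 9 were tested, and 6 of these were lower in rESC-RPC2 than in rESC-RPC1, where 9.25% of all genes were. The differences of all 9 were below 0 there, from -2.59 to -0.29. Against P-RPC, 4 were higher and 1 lower in rESC-RPC1, where 12.0% and 9.56% of all genes were, and 1 was higher and 4 were lower in rESC-RPC2, where 10.7% and 13.0% were.

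Ndrg1, a stress-induced gene of differentiation that is used as a hypoxia marker, was called lower in all 3 comparisons. The Ndrg1 signal was 4715, 4319 and 4073 in P-RPC, 501, 319 and 529.6 in rESC-RPC1, and 76.6, 55 and 91.8 in rESC-RPC2, all 3 of the last under the threshold. Ndrg1 fell by 3.31 ± 0.22 in rESC-RPC1 relative to P-RPC (adjusted p = 7.57e-07). In rESC-RPC2 it was at least 35.6-fold lower than in P-RPC (adjusted p = 1.87e-08) and at least 3.58-fold lower than in rESC-RPC1 (adjusted p = 1.06e-05). Ndrg1 and Slc16a3 thus followed 1 order of group means, P-RPC over rESC-RPC1 over rESC-RPC2. So did Slc2a1, Eno1, Ldha, Egln1, Bnip3 and Mxi1, though P-RPC and rESC-RPC1 arrays overlapped for Ldha and Mxi1.

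Ddit4 encodes REDD1, an inhibitor of mTORC1 signalling that hypoxia, glucocorticoids and other stresses induce. The Ddit4 signal was 1875, 2004 and 2110.3 in P-RPC, 2905, 5435 and 4130.2 in rESC-RPC1, and 777, 908 and 806 in rESC-RPC2. The groups did not overlap, and the rESC-RPC1 arrays spread widely. Ddit4 was 1.01 ± 0.18 above P-RPC in rESC-RPC1 (adjusted p = 0.000781), a call that was lost without P-RPC replicate 1 (0.97), rESC-RPC1 replicate 2 (0.80) or rESC-RPC1 replicate 3 (0.99). It fell by 1.27 ± 0.18 in rESC-RPC2 relative to P-RPC (adjusted p = 0.000161) and by 2.28 ± 0.18 against rESC-RPC1 (adjusted p = 7.9e-06). Bnip3, a mitochondrial protein that promotes mitophagy, gave a signal of 5709, 5796 and 5537 in P-RPC, 5248, 5221 and 3817 in rESC-RPC1, and 1939.5, 2117 and 1788 in rESC-RPC2. The rESC-RPC2 arrays lay below the rest, and Bnip3 fell by 1.55 ± 0.12 against P-RPC (adjusted p = 1.92e-06) and by 1.28 ± 0.12 against rESC-RPC1 (adjusted p = 1.85e-05). Mxi1, a MAX partner that opposes MYC, gave a signal of 2191, 2213 and 2062 in P-RPC, 2139, 2081 and 1180.5 in rESC-RPC1, and 796, 853 and 763 in rESC-RPC2. Mxi1 fell by 1.42 ± 0.19 against P-RPC (adjusted p = 9.28e-05) and by 1.11 ± 0.19 against rESC-RPC1 (adjusted p = 0.000833). The second call rests on replicates of rESC-RPC1, since it was lost without replicate 1 (-0.96) or replicate 2 (-0.98). It was also lost by the methods' t-test with Benjamini-Hochberg adjustment (adjusted p = 0.0537). A dimmer second probe set of Mxi1, at or above the threshold on 7 arrays, was called in neither comparison (-0.94 with adjusted p = 0.101, and -1.18 with adjusted p = 0.0595).

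P4ha1 and P4ha2 encode the catalytic subunits of the collagen prolyl 4-hydroxylases, which hypoxia induces and which collagen-making cells need. The P4ha1 signal was 1307, 1234 and 1399 in P-RPC, 3289.9, 2516 and 3818 in rESC-RPC1, and 832, 698 and 826 in rESC-RPC2. The P4ha2 signal was 267, 333 and 243 in P-RPC, 1353, 774 and 1714 in rESC-RPC1, and 386, 389.8 and 406 in rESC-RPC2. Both were highest on the 3 rESC-RPC1 arrays. P4ha1 rose by 1.27 ± 0.14 (adjusted p = 3.1e-05) and P4ha2 rose by 2.13 ± 0.24 (adjusted p = 3.58e-05) when rESC-RPC1 was set against P-RPC. In rESC-RPC2 against rESC-RPC1, P4ha1 fell by 2.01 ± 0.14 (adjusted p = 4.22e-06) and P4ha2 fell by 1.63 ± 0.24 (adjusted p = 0.000371). Mesenchymal and smooth muscle markers, among them collagen genes, moved with these in part. Of 12 on the array, 5 were at or above the threshold on all 3 P-RPC arrays, 9 in rESC-RPC1 and 9 in rESC-RPC2. Their summed signal was 1661 to 1836, 19556 to 50193 and 12779 to 23031. Set against P-RPC, 8 of the 9 tested were called higher in rESC-RPC1, where 12.0% of all genes were. Among these, Col3a1, Tagln and Cnn1 were under the threshold on all 3 P-RPC arrays and so passed the filter through the rESC-RPCs alone. In rESC-RPC2, where the P4ha1 difference from P-RPC was -0.74, 7 were higher (10.7% of all genes) and Thy1 was lower (13.0% of all genes). In rESC-RPC2 against rESC-RPC1, 5 were lower (Col3a1, Col1a2, Col1a1, Fbn1 and Thy1), where 9.25% of all genes were. The differences of the other 4 were above 0 without a call, up to 1.14 for Acta2 (adjusted p = 0.0873). Lum and Dcn were under the threshold in both kinds of rESC-RPCs, and the part of these cells in the differences was not tested.

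Adm encodes adrenomedullin, a vasodilator peptide and HIF target. Its signal was 22, 20.6 and 4.38 in P-RPC, all under the threshold, 190.4, 307 and 507 in rESC-RPC1, and 267, 149 and 194 in rESC-RPC2. Against P-RPC, Adm was at least 2.52-fold higher for rESC-RPC1 (adjusted p = 7.84e-05) and at least 1.61-fold higher for rESC-RPC2 (adjusted p = 0.000199). With signals under the threshold raised to it, the second call was lost (0.69, adjusted p = 0.0839). Vegfa, the growth factor for blood vessels, gave 1029 to 1105 in P-RPC, 1024 to 1707 in rESC-RPC1 and 774 to 796 in rESC-RPC2, and Higd1a, a mitochondrial protein, gave 4208 to 4903, 7109.5 to 8203 and 5829.9 to 6509. Neither was called in any comparison.

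**Figure D4:**
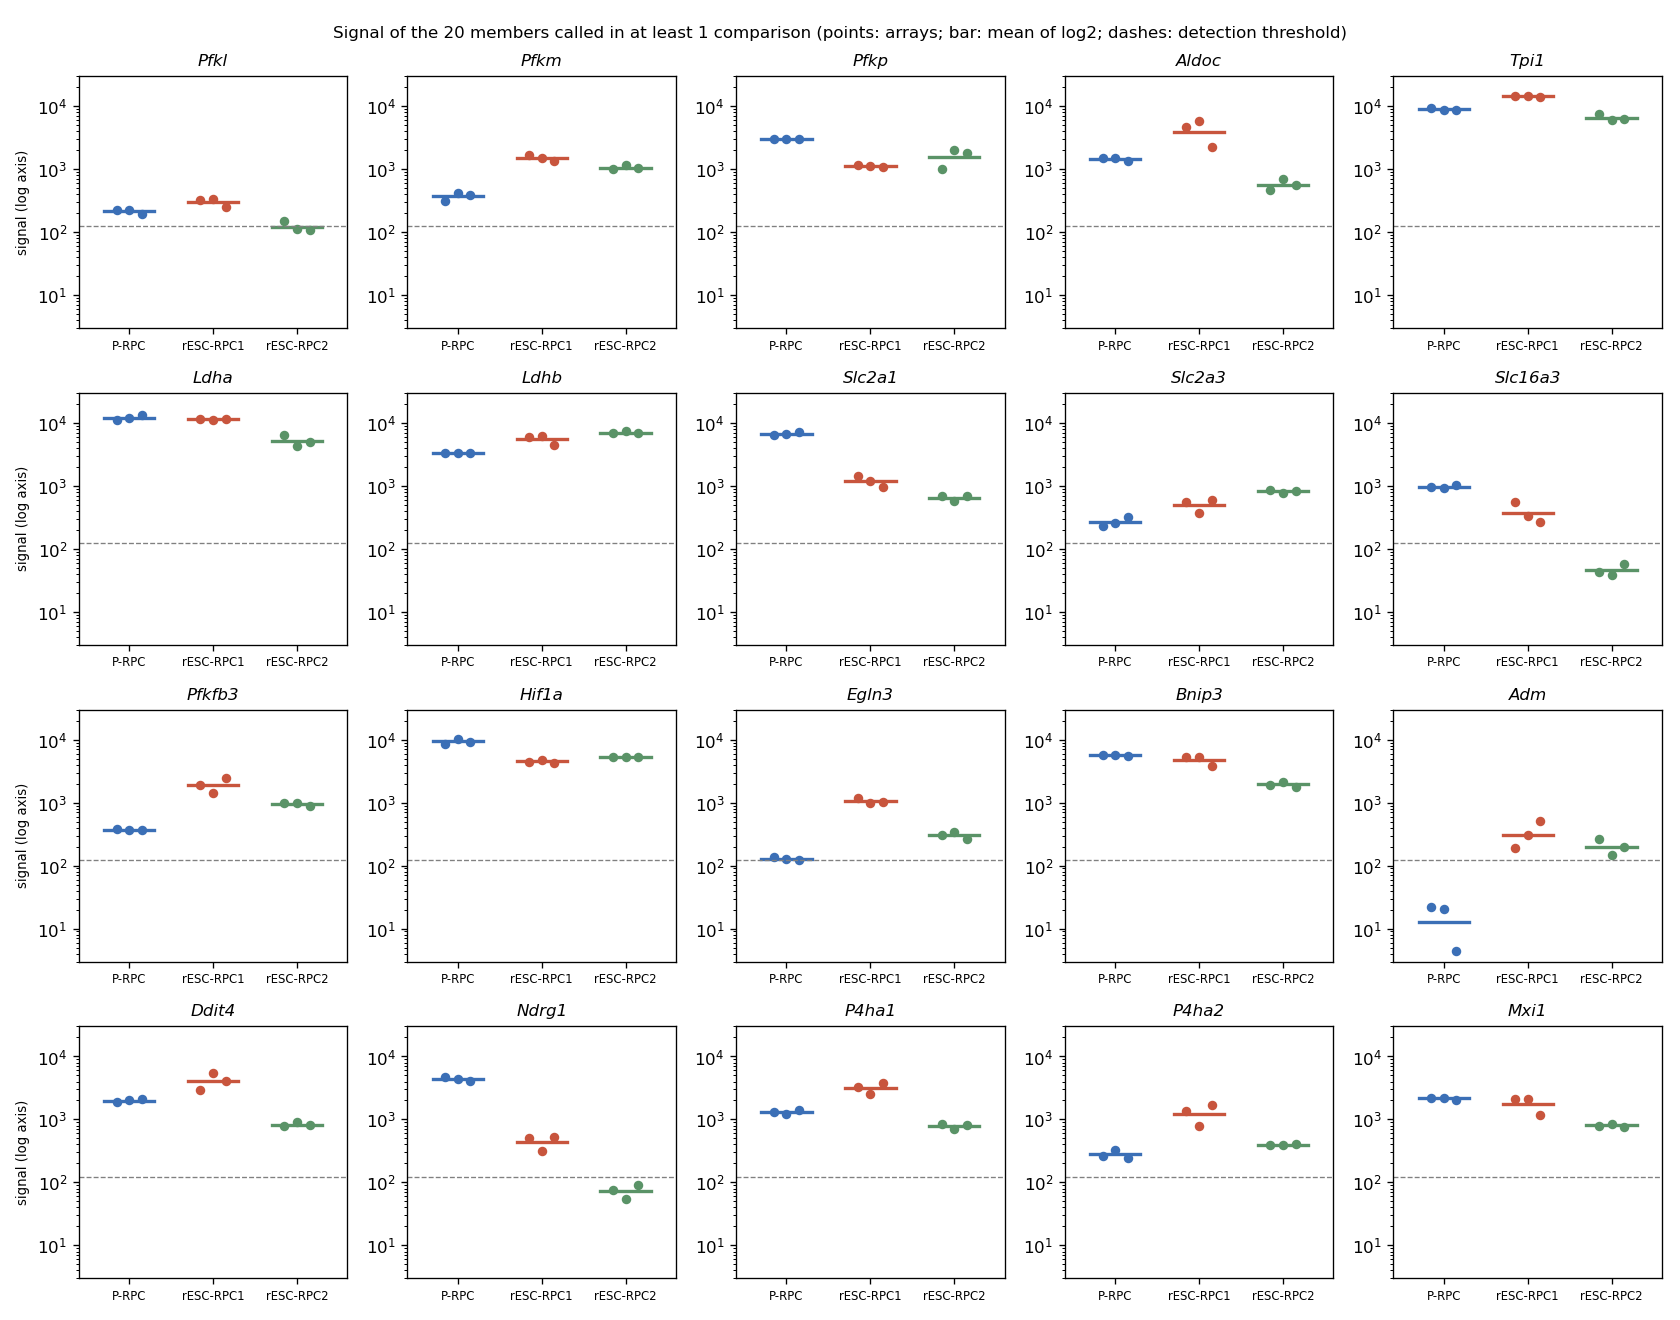
Signal on each array (points, log axis) of the 20 genes called in at least 1 comparison, with the group mean of log2 signals (bars) and the detection threshold of 123 (dashes). Slc16a3 and Ndrg1 lie under the threshold on all 3 rESC-RPC2 arrays and Adm on all 3 P-RPC arrays, and Aldoc, Ddit4 and P4ha1 are highest on the 3 rESC-RPC1 arrays.

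Neighbouring pathways were read from further lists of genes. Of 12 tested genes of other glycolytic isoforms and glycogen turnover, rESC-RPC1 had 4 higher and 2 lower than P-RPC, where 12.0% and 9.56% of all genes were, and rESC-RPC2 had 1 higher and 3 lower than P-RPC, where 10.7% and 13.0% were. Against rESC-RPC1, rESC-RPC2 had 0 higher and 2 lower (Gys1 and Pygl), where 5.02% and 9.25% were, and by the methods' t-test with Benjamini-Hochberg adjustment 1 lower, without Pygl (adjusted p = 0.072). At an unadjusted p under 0.05 with no limit on the fold, limma and the methods' t-test each gave 1 gene above rESC-RPC1. Hkdc1, a hexokinase relative, averaged 1955 ± 70.6 (SD, n = 3) on the P-RPC arrays. It was under the threshold elsewhere, at least 15.9-fold lower, and so passed the filter through P-RPC alone. Its differences fitted by limma, which include signals under the threshold, had an adjusted p = 8.19e-09 in rESC-RPC1 and 7.91e-09 in rESC-RPC2. Gys1, the glycogen synthase, had means of 134 ± 13.2, 544 ± 33.2 and 239 ± 19.1 for P-RPC, for rESC-RPC1 and for rESC-RPC2. It rose by 2.03 ± 0.13 in rESC-RPC1 relative to P-RPC (adjusted p = 7.22e-07) and fell by 1.18 ± 0.13 in rESC-RPC2 against rESC-RPC1 (adjusted p = 5.83e-05). Gbe1 and Pygb, which branch and break down glycogen, rose by 1.05 ± 0.12 and 1.01 ± 0.11 in rESC-RPC1 relative to P-RPC (adjusted p = 2.79e-05 and 3.04e-05). Both calls lay close to 2-fold: that of Gbe1 was lost without rESC-RPC1 replicate 3 (0.96), and that of Pygb without P-RPC replicate 2 (0.99) or rESC-RPC1 replicate 2 (0.92).

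Of 12 tested genes for the entry of pyruvate into mitochondria, rESC-RPC1 had 1 above P-RPC, and rESC-RPC2 had 1 below P-RPC and 3 below rESC-RPC1, where 12.0%, 13.0% and 9.25% of all genes were. Pdk4 rose in rESC-RPC1, at least 4.58-fold over P-RPC (adjusted p = 1.51e-06), and fell by 2.28 ± 0.18 from there to rESC-RPC2 (adjusted p = 8.33e-06). In rESC-RPC2, Pdk2, a further kinase of this family, was at least 2.87-fold lower than in P-RPC (adjusted p = 6.06e-05) and at least 2.65-fold lower than in rESC-RPC1 (adjusted p = 0.000148), and Pc, which makes oxaloacetate from pyruvate, fell by 1.45 ± 0.27 in the latter comparison (adjusted p = 0.00152). By the methods' t-test with Benjamini-Hochberg adjustment Pc was not called (adjusted p = 0.0608). Of 15 tested genes of the tricarboxylic acid cycle, Idh3a alone was called, 1.01 ± 0.11 above P-RPC in rESC-RPC2 (adjusted p = 2.98e-05), where 10.7% of all genes were higher. It fell short of 2-fold without P-RPC replicate 1 (0.98), rESC-RPC2 replicate 1 (0.997) or rESC-RPC2 replicate 3 (0.97). The medians of the list were 0.27 in both comparisons with P-RPC and 0.11 between both kinds of rESC-RPCs. Of 6 tested genes of the pentose phosphate pathway, Pgd alone was called, 1.03 ± 0.13 above P-RPC in rESC-RPC1 (adjusted p = 7.18e-05), where 12.0% of all genes were higher. Pgd fell short of 2-fold without rESC-RPC1 replicate 1 (0.98) or replicate 3 (0.96). Of 10 tested components of the HIF pathway, 1 was higher in rESC-RPC1 and 2 in rESC-RPC2 than in P-RPC, where 12.0% and 10.7% of all genes were. Between both kinds of rESC-RPCs 1 was higher in rESC-RPC2, where 5.02% of all genes were, and 0 were lower in any comparison. Epas1, which encodes HIF-2 alpha, rose by 1.19 ± 0.38 in rESC-RPC1 (adjusted p = 0.0201) and 1.29 ± 0.38 in rESC-RPC2 (adjusted p = 0.0127) against P-RPC, and its rESC-RPC1 mean of 1386 had an SD of 937. By the methods' t-test the difference in rESC-RPC1 was called neither with nor without adjustment (adjusted p = 0.147), and by limma it was lost without P-RPC replicate 1 (adjusted p = 0.0622), P-RPC replicate 3 (adjusted p = 0.051) or rESC-RPC1 replicate 3 (0.67). The call in rESC-RPC2 was lost without rESC-RPC2 replicate 1 (adjusted p = 0.0538). Arnt2, the neural partner of HIF alpha subunits, rose by 1.47 ± 0.13 in rESC-RPC2 relative to P-RPC (adjusted p = 5.79e-06) and by 1.30 ± 0.13 against rESC-RPC1 (adjusted p = 3.21e-05).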

How the data were processed

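Total RNA of 9 samples was labelled with biotin and hybridized to Affymetrix Rat Genome 230 2.0 arrays. The authors removed background and made signal intensities on a linear scale with MAS 5.0 in Gene Spring Software 11.0, and the mean after trimming 2% from each end was 500.2 on every array. Samples were grouped by their titles. From the deposited intensities, the lowest value allowed was 1, and log2 values were computed. Of 31099 probe sets, 57 controls were left out, 20826 carry 1 gene symbol, 436 several and 9780 none. Where a gene had several probe sets that passed the filter, the one of highest mean log2 over the 9 arrays was used. The fit used R 4.3.3 and limma 3.58.1 (lmFit, eBayes with a trend), 1 mean per group, all 9 arrays and no covariate, and was tested on simulated data. The methods name a 2-fold change and p under 0.05; limma replaced the t-test, which was run as an alternative, as were other scalings, filters, floors, probe set choices, fold thresholds and left-out arrays. Where all 3 arrays of a group were under the detection threshold, a fold is a lower bound against it. The adjusted p beside such a bound is that of limma's fitted difference, and such a gene passed the filter through the other groups alone. The number of arrays and the signal over background thus limit the precision. Replicates of a group correlated at r from 0.952 to 0.988, and no pair of arrays held identical values. The labels call them biological repeats. The listed genes and the pathway and marker lists were chosen with earlier results of these data known, so the counts are descriptions and no list was tested. All 37 genes were to be named, and from each pathway list at most 4 called genes per comparison with the smallest adjusted p. Start site windows came from RefSeq, build GRCr8.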

Additional observations from a re-analysis of the deposited data

How the results depend on the processing

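Of 2178 differences of single genes recomputed under the alternatives, 2131 kept their direction and their side of the calling threshold, 29 gained a call, 11 lost one and 7 changed sign. The 7, none of them called, were Mxi1 in rESC-RPC1 against P-RPC (0.24) and Higd1a in rESC-RPC2 against rESC-RPC1 (0.21) with the probe set of largest variance, and 5 others when 1 array was left out. These were Pdk1 in rESC-RPC1 against P-RPC without P-RPC replicate 3, rESC-RPC1 replicate 1 or rESC-RPC1 replicate 2 (range without 1 array -0.090 to 0.25), Vegfa there without rESC-RPC1 replicate 2 (-0.0041 to 0.36), and Aldoa in rESC-RPC2 against P-RPC without rESC-RPC2 replicate 1 (-0.016 to 0.28). At a 1.5-fold threshold, 14 of the 33 genes were higher in rESC-RPC1 and 14 lower in rESC-RPC2 than in P-RPC. Of all 9956 genes tested, 2010 and 2245 were called so at this threshold, beside 1192 and 1292 at 2-fold. Against rESC-RPC1, 1 of the 33 genes (Slc2a3) was then higher in rESC-RPC2 and 17 were lower. Over all genes these counts were 1163 and 1755, beside 500 and 921 at 2-fold. The median of the genes other than enzymes moved to -0.37 in rESC-RPC2 against P-RPC with median centring, and to 0.37 in rESC-RPC1 against P-RPC with the mean of all probe sets of a gene. Leaving out 1 array gave 7 to 9 higher and 4 to 5 lower genes in rESC-RPC1 against P-RPC, 6 higher throughout and 8 to 9 lower in rESC-RPC2 against P-RPC, and 0 higher throughout and 11 to 14 lower in rESC-RPC2 against rESC-RPC1. The enzyme medians then ran from 0.39 to 0.52, from -0.48 to -0.35 and from -0.60 to -0.52, and those of the other genes from -0.0041 to 0.33, from -0.50 to -0.43 and from -0.96 to -0.77. The value of -0.0041 was without rESC-RPC1 replicate 2. Replicate numbers were treated as unpaired, since deviations of same-numbered arrays correlated at -0.04 to 0.27, and 1 of 9 pairs exceeded 0.1. A fit with replicate as a block called 8 and 5, 6 and 8, and 0 and 12 of the 33 genes higher and lower in the 3 comparisons, the same counts as without it. Over all genes the block gave 2148, 2363 and 1426 calls beside 2144, 2361 and 1421. Other scalings left the median of all genes within 0.1 of 0. Signals under the threshold limit Slc16a3, Ndrg1 and Adm to bounds.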

Other observations

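A further list of 38 hypoxia targets, 29 of them tested, was read beside the genes of the report. Against P-RPC, rESC-RPC1 had 11 higher and 2 lower (Ccng2 and Rora), where 12.0% and 9.56% of all genes were, and rESC-RPC2 had 4 higher and 8 lower, where 10.7% and 13.0% were. Against rESC-RPC1, rESC-RPC2 had 1 higher and 11 lower, where 5.02% and 9.25% of all genes were. The methods' t-test with Benjamini-Hochberg adjustment gave 0 higher and 6 lower in this comparison, where 433 and 702 of all 9956 genes were. At an unadjusted p under 0.05 and 2-fold it gave 0 and 8. The list's median in the last comparison was -0.61, beside -0.03 for all genes. Lox, which crosslinks collagen, averaged 94.5 ± 18.2 (SD, n = 3) for P-RPC, 8625 ± 4151 for rESC-RPC1 and 3949 ± 734 for rESC-RPC2, and was at least 65.3-fold and at least 31.8-fold higher than in P-RPC by limma (adjusted p = 6.71e-08 and 1.94e-07). Plod1 and Plod2, the lysyl hydroxylases of collagen, fell by 2.64 ± 0.18 and fell by 1.93 ± 0.20, respectively, from rESC-RPC1 to rESC-RPC2 (adjusted p = 3.4e-06 and 4.03e-05). Like P4ha1, both had their highest mean in rESC-RPC1, and the part of mesenchymal cells in this was not tested. Ak4, a mitochondrial adenylate kinase, had means of 502 ± 36.2, 488 ± 48 and 153 ± 45.4 and fell by 1.71 ± 0.19 between both kinds of rESC-RPCs (adjusted p = 4.97e-05). The 1 gene that ran the other way was Angptl4, a secreted inhibitor of lipoprotein lipase, named after its values were seen. Angptl4 rose by 1.35 ± 0.43 in rESC-RPC2 against rESC-RPC1 by limma (adjusted p = 0.0234). The call was lost by the methods' t-test with and without adjustment (adjusted p = 0.157). By limma it was lost without rESC-RPC1 replicate 1 or 2, or rESC-RPC2 replicate 1 or 3 (differences of 0.89 to 1.35, adjusted p from 0.0572 to 0.0719).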
